A study of Homo sapiens with 6 samples.

Results

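ATP-binding cassette (ABC) transporters were examined in Huh-7, an established human cell line from hepatocellular carcinoma. The members were all rows of the gene table whose symbol begins with ABCA to ABCG and a digit, which gave 46 of 20332 rows. TAP1 and TAP2, the peptide transporters of antigen presentation, were left out. All 46 are protein-coding genes in GENCODE release 29, and 1 of them, ABCF2-H2BK1, is a readthrough of ABCF2 into its neighbour. Poly(A) RNA was sequenced from 3 samples of Huh-7 cells made to overexpress RAC3 stably with a lentivirus and from 3 negative control (NC) samples. RAC3 is a Rac family GTPase, and the NC cells are labelled wild type. Whether the stable line was a pool or a clone, and what vector the NC cells received, was not given in the sources used here.

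ABC transporters use the energy of ATP to move substrates across membranes. In liver cells, ABCB1 (P-glycoprotein), ABCC2 and ABCG2 sit on the canalicular face and pass drugs and conjugates into bile. ABCB4, ABCB11 and the ABCG5 and ABCG8 pair move phospholipid, bile salts and sterols the same way. ABCA1 and ABCG1 hand cholesterol to lipoproteins, the D subfamily serves peroxisomes and lysosomes, and the E and F subfamilies have no membrane part and act at the ribosome.

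Total counts on genes lay between 13855762 and 18199888 per sample, so that 3 counts, the limit that a count of 0 allows, correspond to 0.167 to 0.215 CPM, the unit of counts after division by library size. This limit covers counting error only. All CPM values are scaled by the trimmed mean of M values (TMM). RAC3 itself had 35.6, 31.4 and 32.8 CPM in the NC samples and 232.6, 239.6 and 225.4 CPM in the RAC3 samples. In 2 of these 3 samples, numbers 2 and 3, the genotype label gives a gene other than RAC3, and RAC3 was high in both. All 10 hepatocyte markers were present, with a summed level of 3483 to 3599 FPKM (fragment counts scaled by gene length and library size) in NC and 3194 to 3595 FPKM in RAC3 samples. The 5 leukocyte markers summed to 29.2 to 34.3 FPKM in NC and 28.0 to 29.6 FPKM in RAC3 samples. This sum came mainly from CD14, with means of 27.7 FPKM in NC and 22.6 FPKM in RAC3 samples. CD68 had means of 3.89 and 5.65 FPKM, and PTPRC, CD3E and CD79A reached at most 9 counts in a sample. The 4 endothelial markers summed to at most 1.22 FPKM. The 6 fibroblast and stellate cell markers summed to 74.9 to 80.5 FPKM in NC and 88.7 to 95.3 FPKM in RAC3 samples, mainly from LUM. COL1A1 had means of 11.3 FPKM in NC and 10.4 FPKM in RAC3 samples, and COL1A2 had 8.47 and 12.5 FPKM. PDGFRB had 0.86 and 0.58 FPKM, and DCN and ACTA2 were at or near 0. The 5 cholangiocyte markers, led by KRT19, summed to 497 to 511 FPKM in NC and 400.3 to 441.8 FPKM in RAC3 samples. The part of these differences in the ABC results was not tested.

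Of the 46 ABC genes, 36 had enough counts for the test and 10 did not. In the quasi-likelihood F test of edgeR, 9 of the 36 passed an adjusted p of 0.05 (Benjamini-Hochberg over 12941 genes), against 28.5% of all genes tested. There were 5 higher in RAC3 samples, ABCB1, ABCC2, ABCE1, ABCD3 and ABCA6, and 4 lower, ABCA2, ABCG1 and ABCC1 among them. Over all genes, 13.3% were called higher and 15.3% lower. The share of the family called was thus no larger than that of the transcriptome, and the median log2 fold change of the 36 was -0.02, against 0.00 over all genes. By a fold change above 1.5 with an unadjusted p under 0.05, 4 of the 36 were called, ABCB1, ABCG1, ABCA6 and ABCA10, which is 11.1%, against 4.68% of all genes. ABCA6 and ABCA10 had enough counts for the test only because of their RAC3 samples, so nothing is read from this share. RAC3 and NC samples did not overlap for 20 of the 36, which is 55.6%, with 10 genes above and 10 below, against 42.5% of all genes. Among the 20 are ABCA6 and ABCA10, above, and ABCC11, below. Each had enough counts for the test only through the group in which it was higher, so nothing is read from this share either.

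**Figure D1:**
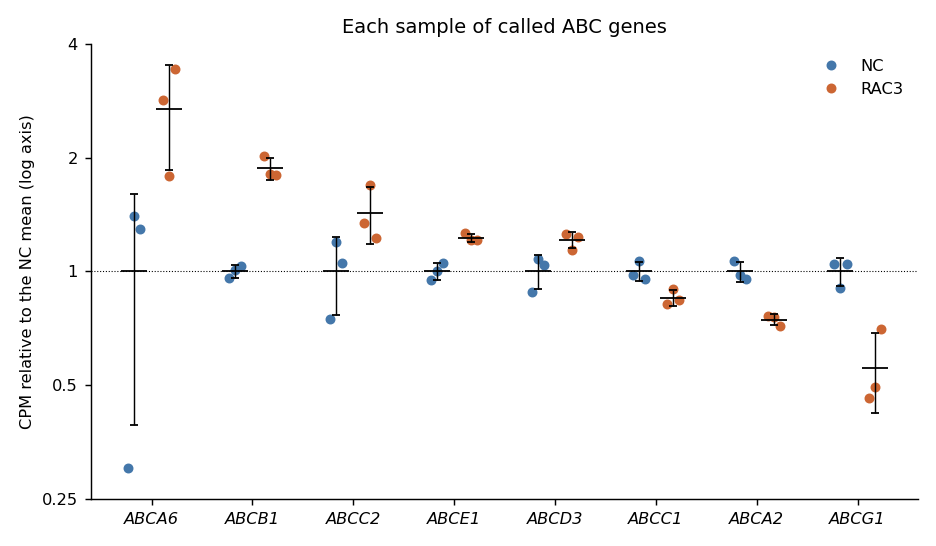
CPM of each sample divided by the NC mean of the same gene (log axis) for 8 of the 9 ABC genes called at an adjusted p of 0.05; points are samples, bars the mean ± SD of 3. ABCB1 has RAC3 samples close together at nearly 2 times the NC mean, ABCG1 lies lowest, and ABCA6 has the widest spread.

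The drug and conjugate pumps were led by ABCB1, the multidrug efflux pump (ENSG00000085563, chromosome 7 from 87503633 to 87713323 on the minus strand, GRCh38). ABCB1 had 38.6, 40.6 and 41.5 CPM in the NC samples and 81.2, 72.7 and 72.3 CPM in the RAC3 samples. Every RAC3 sample was above every NC sample, with a gap of more than 30 CPM and a spread within each group of less than 10 CPM. The fold change was 1.87, or 0.91 on the log2 scale (SE 0.0650, adjusted p = 1.2e-08, edgeR). It ranked 14 of 12941 genes by p-value and 104 by log2 fold change. In bulk RNA, more cells with a transcript and more of it per cell cannot be told apart. An exact permutation test of its 6 samples, two-sided, gave p = 0.10, the smallest that 3 against 3 allow.

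RefSeq lists 2 transcription starts for ABCB1, and the 250 bases before each are shown, 5′ to 3′ on the gene's strand, because ABCB1 has the firmest change of the family. Capitals mark 3 motifs on either strand. The CCAAT box reads as ATTGG when it lies on the other strand. The GC box GGGCGG then reads as CCGCCC, and the TATA box TATAAA as TTTATA. Matches that overlap were counted separately. The start inside the gene (chr7:87600885-87601134, GRCh38.p14, minus strand) has 55.6% GC and 2 CCAAT boxes, and the outer start (chr7:87713296-87713545, minus strand) has 39.2% GC and none of the 3 motifs.
ABCB1 inner start: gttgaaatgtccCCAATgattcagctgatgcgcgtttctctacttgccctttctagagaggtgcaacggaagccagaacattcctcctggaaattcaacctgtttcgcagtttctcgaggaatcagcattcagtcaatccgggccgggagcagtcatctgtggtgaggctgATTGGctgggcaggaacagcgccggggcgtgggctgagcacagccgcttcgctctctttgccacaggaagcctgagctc
ABCB1 outer start: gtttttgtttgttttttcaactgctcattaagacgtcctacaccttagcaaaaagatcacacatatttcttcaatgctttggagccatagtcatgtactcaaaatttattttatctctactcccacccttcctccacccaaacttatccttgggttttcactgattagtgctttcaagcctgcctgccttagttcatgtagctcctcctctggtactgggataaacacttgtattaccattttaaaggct
Gene counts do not separate the transcripts of these 2 starts. Windows were found for 36 of the 46 members (54 windows). CCAAT was in 22.2% of them and in 32.0% of all 35116 windows, GGGCGG in 48.1% and 42.6%, and TATAAA in 11.1% and 10.7%. A match describes letters only.

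ABCC2, the canalicular pump for glucuronide and glutathione conjugates, was low. It had 6.59, 10.6 and 9.31 CPM in the NC samples and 11.9, 15 and 10.9 CPM in the RAC3 samples. The groups did not overlap, but the highest NC and the lowest RAC3 sample lay close together. ABCC2 rose by 0.51 on the log2 scale (SE 0.158, adjusted p = 0.0217, edgeR). The call was lost without NC sample 1 (log2 fold change 0.34) and without RAC3 sample 2 (0.36). It was also lost with limma on log2(FPKM + 0.1) (0.53, adjusted p = 0.143) and on log2(FPKM + 1). With RAC3 sample 1 alone the log2 fold change of ABCC2 was 0.42, and the call was not kept. The window before its start (chr10:99782390-99782639, GRCh38.p14, plus strand) has 45.6% GC and 1 TATAAA.
ABCC2: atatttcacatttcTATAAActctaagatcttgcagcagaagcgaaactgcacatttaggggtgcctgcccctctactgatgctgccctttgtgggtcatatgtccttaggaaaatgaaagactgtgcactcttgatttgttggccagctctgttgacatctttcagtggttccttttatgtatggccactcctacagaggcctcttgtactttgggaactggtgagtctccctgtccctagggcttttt

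ABCC1, which exports glutathione conjugates from many cell types, had 45.0, 48.8 and 43.9 CPM in the NC samples and 37.5, 41.2 and 38.5 CPM in the RAC3 samples. All 3 RAC3 values were below the NC values, and the fold was small. ABCC1 fell by 0.23 on the log2 scale (SE 0.0691, adjusted p = 0.017, edgeR), and the call was lost in 8 of 19 alternative analyses, among them those without NC sample 2, without RAC3 sample 1 or without RAC3 sample 3. ABCG2, a pump for drugs and urate, had only 10 to 26 counts per NC sample and 26 to 30 per RAC3 sample, with a log2 fold change of 0.52 (SE 0.342, adjusted p = 0.274, edgeR).

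The remaining C-subfamily pumps were not called. ABCC3, the basolateral conjugate pump, had a log2 fold change of -0.09 (adjusted p = 0.429). ABCC4, which carries cyclic nucleotides and bile salts, had -0.06 (adjusted p = 0.672). ABCC5, a cyclic nucleotide and folate pump, had 0.10 (adjusted p = 0.23). Of the 11 drug and conjugate pumps in the list, 9 were tested, 2 were higher and 1 lower, and 6 were not called. The share called was 33.3%, near the 28.5% of all genes.

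The authors' FPKM values are per length and were used to compare levels between genes. Their ratio to counts was not fixed within every gene, so the order and shares on this scale are approximate. ABCC10, a pump in the list, had 14.1 CPM and 2.83 FPKM in RAC3 sample 2, but 15.3 CPM and 6.14 FPKM in RAC3 sample 3. ABCA10 had 11 counts and 0.878 FPKM in RAC3 sample 2, but 10 counts and 0.118 FPKM in RAC3 sample 3. ABCB1 was 16th of the 46 in NC (8.16 ± 0.319 FPKM, SD, n = 3) and 9th with RAC3 (15.8 ± 1.19 FPKM). In NC its neighbours in this order, ABCB10 (9.05 ± 0.670 FPKM) and ABCA1 (8.15 ± 0.258 FPKM), were within or near its spread, and with RAC3 ABCC5 (15.4 ± 1.51 FPKM) was within it. The 11 drug and conjugate pumps summed to 45.6, 45.2 and 44.4 FPKM in the NC samples and 56.3, 53.5 and 55.4 FPKM in the RAC3 samples. ABCB1 made up 18.1% ± 0.959 (SD, n = 3) of this sum in NC and 28.6% ± 1.59 (SD, n = 3) with RAC3. ABCC5 was the most abundant of these pumps in NC, at 13.7 ± 0.326 FPKM, above ABCB1 in that group.

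Over the family, 13 genes were above 10 FPKM in NC, 15 between 1 and 10 FPKM and 18 below 1 FPKM. The highest levels belonged to members of the E and F subfamilies and to ABCD3. ABCF1, a factor in translation initiation, had 35.2 ± 1.22 FPKM. ABCD3, the peroxisomal carrier of branched-chain fatty acids and bile acid precursors, had 32.8 ± 3.14 FPKM, and the 2 overlapped within their spread. ABCE1, the factor that splits ribosomes after termination, had 26.5 ± 1.92 FPKM, and ABCF3 26.0 ± 1.51 FPKM, again without a gap beyond the spread.

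The canalicular lipid and bile salt exporters were almost silent in these cells. ABCB4, the phosphatidylcholine floppase next to ABCB1, had 35, 25 and 45 counts in the NC samples and 44, 39 and 23 in the RAC3 samples, with a log2 fold change of -0.04 (SE 0.284, adjusted p = 0.939). ABCB11, the bile salt export pump, had 2, 3 and 6 counts against 4, 4 and 4. ABCG8 had 2, 2 and 4 counts against 9, 4 and 7, whereas its obligate partner ABCG5 had 0 counts in 5 samples and 1 in RAC3 sample 3. These 3 were too low to test. ABCC6, which is defective in pseudoxanthoma elasticum, was the only member of this list above 1 FPKM, at 21.0 ± 0.448 FPKM in NC and 22.6 ± 0.769 FPKM with RAC3, and it was not called. ABCC6 has near-identical pseudogene copies, so its counts are uncertain.

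Among the lipid transporters, ABCG1, which passes cholesterol to high-density lipoprotein (ENSG00000160179, chromosome 21 from 42199689 to 42297244, GRCh38), had the lowest fold change of the 36. It had 11.6, 9.99 and 11.6 CPM in the NC samples and 5.12, 5.47 and 7.80 CPM in the RAC3 samples. No RAC3 sample reached an NC value, and RAC3 sample 3 was the nearest. ABCG1 fell by 0.87 on the log2 scale (SE 0.159, adjusted p = 0.00047, edgeR), which is 1.82-fold lower.

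ABCA2, a lipid transporter of endosomes and lysosomes (ENSG00000107331, chromosome 9 from 137007227 to 137028922, GRCh38), was the lipid transporter with the most counts. It had 162, 148 and 145 CPM in the NC samples and 116, 115 and 109 CPM in the RAC3 samples. The 3 RAC3 samples lay within 8 CPM of each other and well below NC. ABCA2 fell by 0.42 on the log2 scale (SE 0.0530, adjusted p = 9.9e-06, edgeR). One of its 2 windows (chr9:137028238-137028487, GRCh38.p14, minus strand) has 85.6% GC and 6 GGGCGG boxes, 1 pair of them overlapping, and is shown beside that of ABCC2 for its different base composition.
ABCA2: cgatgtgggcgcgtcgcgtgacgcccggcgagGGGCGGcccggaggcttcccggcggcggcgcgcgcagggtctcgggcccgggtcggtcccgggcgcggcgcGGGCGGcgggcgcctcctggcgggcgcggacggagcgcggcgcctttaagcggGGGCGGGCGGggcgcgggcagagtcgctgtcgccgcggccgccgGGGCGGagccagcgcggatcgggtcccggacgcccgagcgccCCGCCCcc

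ABCA1, the partner of ABCG1 in cholesterol export, had 87.5, 83.4 and 84.7 CPM in the NC samples and 81.1, 71.2 and 77.4 CPM in the RAC3 samples. The groups did not overlap, yet the difference missed the threshold, at -0.15 on the log2 scale (SE 0.0585, adjusted p = 0.0564). ABCA7, which is related to ABCA1 and known from Alzheimer's disease genetics, had -0.42 (adjusted p = 0.0502), and ABCA3, the surfactant lipid transporter, had -0.45 (adjusted p = 0.0555). ABCA7, ABCA3 and ABCA10 are named here after their values were seen.

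A cluster on chromosome 17 holds ABCA8, ABCA9, ABCA6, ABCA10 and ABCA5, in this order, lipid transporters whose substrates are less settled. ABCA6 had 2, 10 and 11 counts in the NC samples and 24, 14 and 23 in the RAC3 samples. NC sample 1 was far below the other NC samples. ABCA6 rose by 1.37 on the log2 scale (SE 0.474, adjusted p = 0.0364, edgeR), and 10 of 18 alternative analyses lost the call, among them those without any 1 of the NC samples, without RAC3 sample 1 and without RAC3 sample 3. ABCA10 had 5, 5 and 3 counts against 15, 11 and 10, with a log2 fold change of 1.39 (SE 0.527, adjusted p = 0.0543). ABCA10 reached the level that the filter asks for (0.635 CPM without TMM scaling) in the RAC3 samples alone, and ABCA6 in those 3 and 1 NC sample, so their entry into the test was tied to the RAC3 group. ABCA5 had 9.38, 8.59 and 9.03 CPM in NC and 12.2, 9.41 and 9.86 CPM in RAC3 samples, and ABCA8 had 5 to 13 counts per NC sample and 7 to 13 per RAC3 sample. Neither was called, and ABCA9 was too low to test. Reads can also be shared between ABCA5 and ABCA10, whose exons overlap on the same strand over 3.78% of the exon bases of ABCA10.

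**Figure D2:**
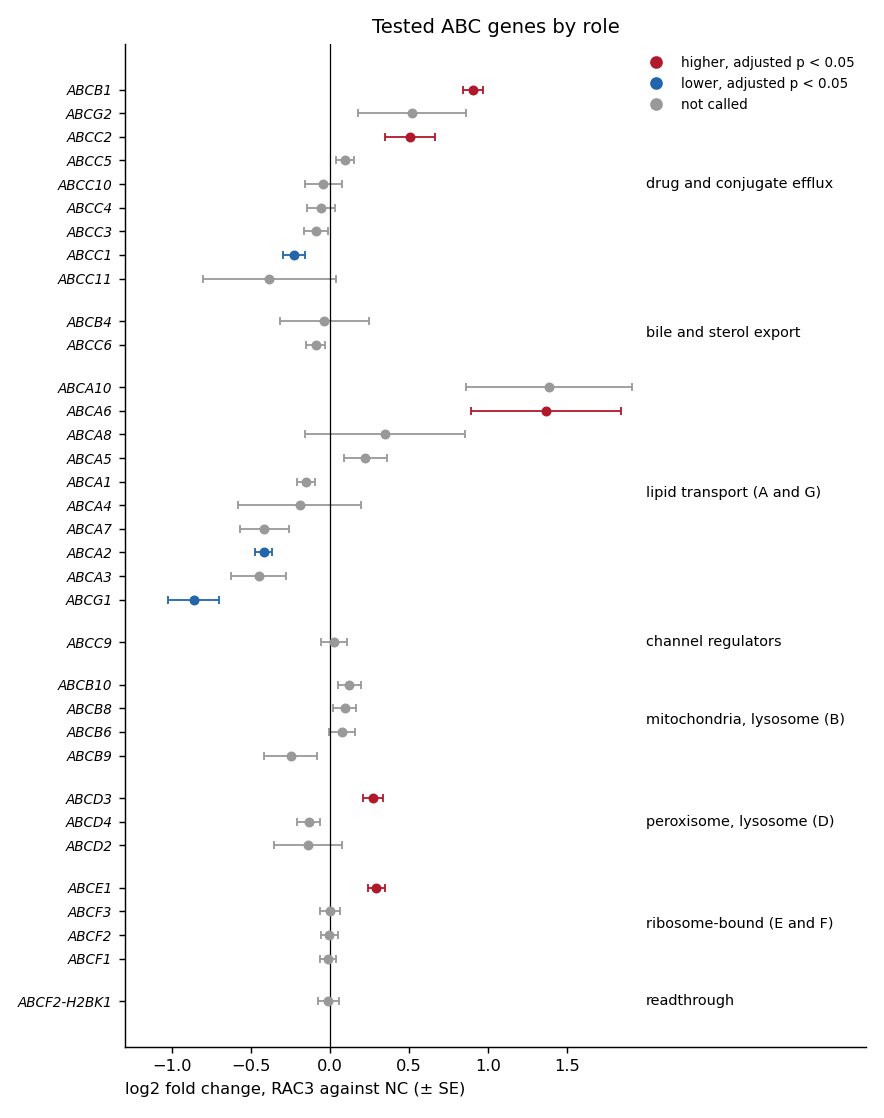
Log2 fold change (± SE) of 34 of the 36 tested ABC genes, RAC3 against NC, grouped by role; red and blue mark an adjusted p under 0.05. Calls stand in both directions among the pumps and the lipid transporters, and no mitochondrial or lysosomal B gene was called.

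Of the 14 lipid transporters of the A and G subfamilies, 10 were tested, and 1 was higher, 2 lower and 7 not called. The share called was 30.0%, near the 28.5% of all genes. The 5 B-subfamily transporters of mitochondria and lysosomes, ABCB6, ABCB8, ABCB9 and ABCB10 among them, which serve heme and peptide transport, were all tested and none was called by edgeR, by DESeq2 or by limma-voom, nor did any pass an unadjusted p of 0.05. With the GC trend removed, ABCB6 and ABCB8 were called. ABCB6 shares 54.7% of its exon bases with a same-strand readthrough gene and ABCB9 20.7% with an opposite-strand transcript, so their counts are uncertain. Of the channel regulators, ABCC9, the cardiac and smooth muscle sulfonylurea receptor, had 24.2 to 25.4 CPM in NC and 23.7 to 27.3 CPM in RAC3 samples and was not called, and ABCC8, its pancreatic counterpart, had at most 6 counts in a sample.

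In the D subfamily, ABCD3 had 100.3, 122.5 and 118.4 CPM in the NC samples and 142.8, 129.9 and 140.4 CPM in the RAC3 samples. All RAC3 values were above NC, and it rose by 0.27 on the log2 scale (SE 0.0639, adjusted p = 0.00332, edgeR). ABCD2, a peroxisomal fatty acid carrier, and ABCD4, the lysosomal cobalamin transporter, were not called.

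Of the 4 ribosome-bound members, ABCE1 was called. It had 84.2, 88.8 and 93.2 CPM in the NC samples and 112, 107 and 107 CPM in the RAC3 samples. The groups were well apart, and ABCE1 rose by 0.29 on the log2 scale (SE 0.0539, adjusted p = 0.000468, edgeR). The ABCE1 call was lost with limma on log2(FPKM + 0.1) (0.27, adjusted p = 0.0568) and on log2(FPKM + 1). The exons of ABCE1 overlap the opposite-strand gene ANAPC10 over 7.49% of their bases and OTUD4 over 4.41%. The library kit did not mark strand, so reads there cannot be told apart. ABCF1, ABCF2 and ABCF3 overlapped between the groups, ABCF1 with 121, 117 and 120 CPM in NC and 119, 119 and 117 CPM in RAC3 samples. ABCF2-H2BK1 shares 87.6% of its exon bases with ABCF2, so the split of reads between these 2 rows is uncertain, and neither was called.

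The 10 members not tested were ABCA9, ABCA12, ABCA13, ABCB5, ABCB11, ABCC8, ABCC12, ABCG4, ABCG5 and ABCG8, with at most 9 counts in any sample. ABCC12 had 0 counts in all 6 samples, which allows up to 3 counts in each.

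**Figure D3:**
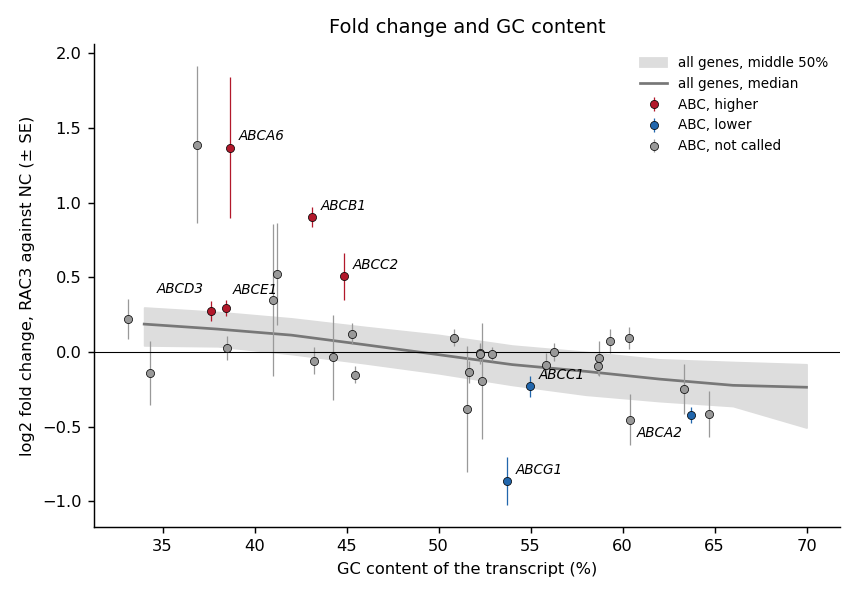
Log2 fold change (± SE) of 34 of the 36 tested ABC genes against the GC content of their transcript, over the median and middle 50% of all genes in bins of 4 percentage points. The 5 genes called higher lie below 45% GC and the 3 shown as lower above 53%, and the median of all genes falls from left to right.

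Fold change went with base composition over all genes tested, and the family is described beside them. The 5 members called higher had transcripts of 37.6% to 44.9% GC, and ABCG1, ABCC1 and ABCA2, called lower, had 53.7%, 54.9% and 63.7%. Across the 36 members, Pearson's r between GC content and log2 fold change was -0.58 and Spearman's rho -0.63. Across 12863 genes they were -0.42 and -0.51. These are descriptions across genes of the same 6 libraries. The 16 members under 50% GC had a median log2 fold change of 0.25, against 0.10 for all such genes, and the 20 members at or above 50% had -0.11, against -0.12. Among the 36, ABCA6 and ABCA10 (38.6% and 36.9% GC) had enough counts for the test only through their RAC3 samples. ABCC11 and ABCA4 (51.5% and 52.4% GC) had enough only through their NC samples. The family values are therefore not read against those of all genes. When each library's trend with GC content was removed, 5 of the 9 calls were left, those of ABCB1, ABCC2, ABCE1, ABCA2 and ABCG1. ABCB1 then rose by 0.82 on the log2 scale (adjusted p = 3.5e-09) and ABCG1 fell by 0.79 (adjusted p = 0.00103). ABCA2 fell by 0.22 (adjusted p = 0.00223), ABCE1 rose by 0.14 (adjusted p = 0.0298) and ABCC2 by 0.45 (adjusted p = 0.0431). Among the calls lost, ABCD3, at 0.11 (adjusted p = 0.123), ABCC1, at -0.13 (adjusted p = 0.15), and ABCA6, at 1.22 (adjusted p = 0.0684), were no longer called. ABCA1, ABCB6 and ABCB8 were among 4 newly called, ABCA1 at -0.20 (adjusted p = 0.00866).

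The genes around ABCB1 on chromosome 7 did not share its change to the same size. Of 9 genes listed there, ABCB1 included, 3 were called higher, against 13.3% of all genes, and 1 of the 3 is ABCB1 itself, around which the list was drawn. CROT, the peroxisomal carnitine octanoyltransferase, whose start lies at -367.6 kb from that of ABCB1 along the chromosome, rose by 0.52 on the log2 scale (SE 0.167, adjusted p = 0.025, edgeR). The CROT call was lost with the GC trend removed (0.39, adjusted p = 0.0984), in both FPKM analyses, with RAC3 sample 1 alone, and without NC sample 1 (0.41), NC sample 2 (0.47) or RAC3 sample 3 (0.44). DBF4, the activating subunit of the CDC7 kinase, at 162.9 kb, rose by 0.34 (SE 0.0637, adjusted p = 0.00064, edgeR). ABCB4, whose start lies between those of CROT and ABCB1, had -0.04, and RUNDC3B, which overlaps ABCB1 on the other strand, had 0.30 (adjusted p = 0.49). SLC25A40, whose start is next to that of DBF4, had -0.15 (adjusted p = 0.21), ADAM22 -0.15 (adjusted p = 0.291), SRI -0.06 (adjusted p = 0.448) and TMEM243 0.36 (adjusted p = 0.162). With the GC trend removed, SLC25A40 (-0.34, adjusted p = 0.00543, edgeR) and SRI (-0.22, adjusted p = 0.00725) were called lower. DBF4 was then still called higher (0.20, adjusted p = 0.0184). GENCODE shows no exon of another gene over the exons of ABCB1.

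**Figure D4:**
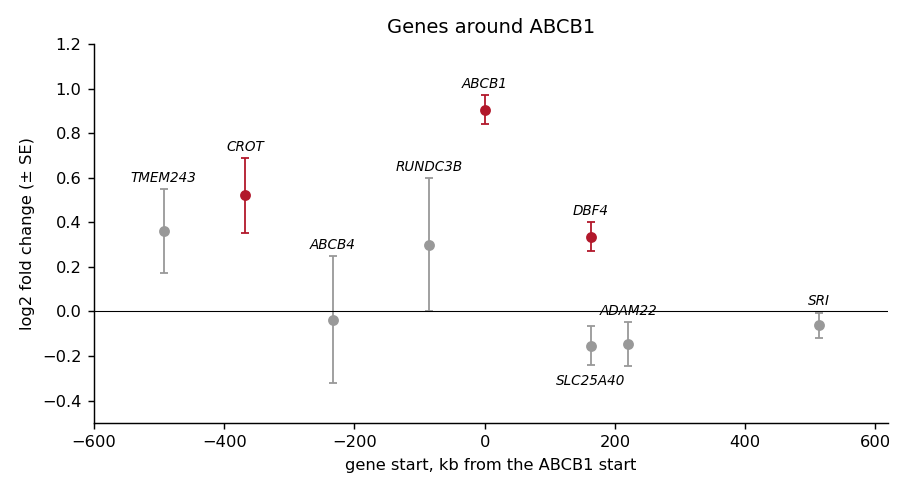
Log2 fold change (± SE) of ABCB1 and 8 genes near it against the distance of their start from that of ABCB1 in kb; red marks an adjusted p under 0.05. ABCB1 stands above all others, with CROT and DBF4 called higher and SLC25A40, beside DBF4, below 0.

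Of a list of nuclear receptors, stress factors and related genes, most of them known to act on ABC genes, 10 of 23 tested were called (43.5%, against 28.5% of all genes), 2 higher and 8 lower. NFE2L2, the oxidative stress factor that drives several C-subfamily genes, rose from 172 ± 7.86 to 241 ± 19.7 CPM (SD, n = 3), or 0.49 on the log2 scale (SE 0.0552, adjusted p = 3.2e-06, edgeR). AHR, the receptor for dioxin-like compounds, rose from 159 ± 10.7 to 213 ± 3.59 CPM, or 0.42 (adjusted p = 6.3e-06). The sterol factors were lower. SREBF2 fell by 0.38 (adjusted p = 2.6e-06) and SREBF1 by 0.31 (adjusted p = 2.2e-05) on the log2 scale. RXRA, the common partner of nuclear receptors, fell by 0.40 (adjusted p = 0.000125), and NR1H2, the beta form of the liver X receptor that drives ABCA1 and ABCG1, fell by 0.25 (adjusted p = 0.00343). NR0B2, the bile acid-induced repressor, fell by 0.52 (adjusted p = 0.0166). NR1H3, the alpha form of the liver X receptor, fell by 0.27 (adjusted p = 0.0202), and MYLIP, a ubiquitin ligase that is itself a target gene of this receptor, fell by 0.27 (adjusted p = 0.0186). These 2 are named after their values were seen. NR1I2 (PXR) and NR1I3 (CAR), the xenobiotic receptors that induce ABCB1 in liver, were too low to test, with means of at most 0.0202 and 0.211 CPM in a group. The median of the 23 was -0.11 on the log2 scale, and after the GC trend was removed it was -0.04. The calls of NR1H2 (-0.08, adjusted p = 0.282), NR1H3 (-0.17, adjusted p = 0.126) and NR0B2 (-0.36, adjusted p = 0.0995) were then lost, while NFE2L2, AHR, SREBF2, SREBF1, RXRA and MYLIP were still called. Limma on log2(FPKM + 0.1) lost the calls of NR1H2 (adjusted p = 0.131), NR1H3 (adjusted p = 0.0598) and MYLIP (adjusted p = 0.124). It kept those of NFE2L2, AHR, SREBF2, SREBF1, RXRA and NR0B2. With library size alone as scaling, edgeR lost NR1H3 (adjusted p = 0.0533) and MYLIP (adjusted p = 0.0552). Single samples also decided calls. That of NR0B2 was lost without NC sample 1 (-0.41) or RAC3 sample 2 (-0.44), that of NR1H3 without NC sample 1 (-0.20) or RAC3 sample 1 (-0.22), and that of MYLIP without NC sample 1 (-0.25), NC sample 2 (-0.27) or RAC3 sample 3 (-0.23).

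Of 13 solute carriers of hepatocytes, mostly for uptake and some for export, 6 were tested and 16.7% of these called, against 28.5% of all genes. SLC47A1, which passes organic cations into bile, fell by 0.49 on the log2 scale (SE 0.151, adjusted p = 0.0207, edgeR), and the other 5 were not called. Its call was lost without NC sample 2 (-0.43), RAC3 sample 1 (-0.49) or RAC3 sample 2 (-0.35). Limma on log2(FPKM + 0.1) lost it too (-0.48, adjusted p = 0.107). Most uptake carriers of normal liver, SLC10A1, SLCO1B1 and SLCO1B3 among them, were at or near 0. Of 11 genes that place or anchor these transporters, 10 were tested and 30.0% of these called, near the 28.5% of all genes. MYO5B, the motor that brings pumps to the canalicular membrane, rose by 0.32 (adjusted p = 0.0204), RDX (radixin), the anchor of ABCC2, rose by 0.18 (adjusted p = 0.0125), and NHERF1, a scaffold, fell by 0.24 (adjusted p = 0.000503), all on the log2 scale. After removal of the GC trend RDX had 0.03 and NHERF1 -0.06, and neither was called, whereas MYO5B was called (0.28, adjusted p = 0.0351). The call of MYO5B was lost with the length trend removed (0.25, adjusted p = 0.054) and in both FPKM analyses. It was also lost without NC sample 1 (0.22), RAC3 sample 1 (0.30) or RAC3 sample 2 (0.31). That of RDX was lost without RAC3 sample 3 (0.15) and with limma on log2(FPKM + 0.1) (0.19, adjusted p = 0.0694).

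ABCB1 and ABCG1 were the members past 1.5-fold whose call stood in all 19 alternative analyses, and ABCA2, with a smaller fold, was the other called in all 19. ABCB1 ranged from 0.82 to 1.01 on the log2 scale over these, with an adjusted p of at most 0.000722. With RAC3 sample 1 alone against the 3 NC samples, the sample whose genotype label names RAC3, ABCB1 had 1.01, ABCG1 -1.11 and ABCA2 -0.39. RAC3 sample 1 was the highest of the RAC3 group for ABCB1 and the lowest for ABCG1.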

How the data were processed

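RNA of 3 RAC3-overexpressing and 3 NC Huh-7 samples was sequenced by the authors on an Illumina NovaSeq after poly(A) selection with a kit that does not mark strand. The deposited table holds raw counts per gene and, as a unit adjusted by the authors for length and depth, FPKM. The submitters' processing notes name Bowtie2 2.2.8, HISAT2, StringTie 1.3.1 and DESeq2. The genome build, the annotation, the strand setting of the counting and the lengths used for FPKM are not given in the sources used here. Samples were grouped by title. Nothing says that the 3 samples of a group came from separate cultures, beyond being independent RNA samples. The p-values therefore measure the spread between these samples. A difference between the stable RAC3 cells and the NC cells that arose otherwise cannot be told apart from RAC3 overexpression.

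Counts were tested in R 4.3.3 with edgeR 4.0.16: filterByExpr by group (about 10 counts in 3 samples), TMM scaling, and a two-sided quasi-likelihood F test, adjusted by Benjamini-Hochberg across 12941 genes. A gene was called at an adjusted p under 0.05. The rule of the study, a fold change above 1.5 with p under 0.05, was a second call. Gene positions, exon overlaps and the GC content and length of transcripts came from GENCODE release 29 (GRCh38), which holds all 46 members, and sequences from RefSeq (GRCh38.p14), matched by symbol. FPKM values served for levels and for 2 of the alternative tests. The self-test on simulated counts recovered the changes put in.

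The genes named are all members called, 15 members taken whatever their result, the genes around ABCB1, and at most 5 called genes in each direction of the other pathway lists. The members and lists were chosen with earlier results of these data known, among them the rise of ABCB1. Values of a few genes that are part of these counts are not reported here. Replicate numbers were not taken as pairs. The alternatives were 3 other scalings, DESeq2 1.42.0, limma-voom and limma 3.58.1 on log2(FPKM + 0.1) and log2(FPKM + 1), 2 other filters, removal of the GC trend (lowess, span 0.3), a replicate block and leaving out each sample. Removal of the length trend and RAC3 sample 1 alone, which is assumed to vary like the NC samples, were added after the data were seen.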

Additional observations from a re-analysis of the deposited data

How the results depend on the processing

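The 9 members called at an adjusted p under 0.05 became 5 with limma on log2(FPKM + 0.1) and 5 with log2(FPKM + 1), where 4 of the 9 were shared, and the 16 genes called in the pathway lists became 9 in each. ABC genes past 1.5-fold with p under 0.05 numbered 2 in place of 4 with at least 10 counts in every sample, which leaves out ABCA6 and ABCA10, and 2 with RAC3 sample 1 alone, where 9 pathway genes were called. Leaving out each sample in turn gave 7 to 10 members, 3 to 5 past 1.5-fold and 12 to 17 pathway genes. With library size alone as scaling, the median log2 fold change over all genes shifted by 0.06, and 65.4% of all calls were higher in place of 46.5%, with 9 members called, 6 higher and 3 lower, in place of 5 and 4.

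Same-numbered NC and RAC3 samples did not deviate together (correlations -0.128, -0.0617 and -0.0143 over 10169 genes). With 3 samples a group this gives no sign of pairing but cannot exclude it. With a replicate block 11 members were called, ABCA3 and ABCA7 in addition.

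Members near 0 changed sign. Leaving out 1 sample in turn gave -0.21 to 0.118 for ABCB4 and -0.14 to 0.032 for ABCC4. ABCB4 had log2 fold changes of 0.020 with library size alone, 0.047 and 0.018 with limma on log2(FPKM + 0.1) and log2(FPKM + 1), 0.044, 0.060 and 0.118 without NC sample 1, NC sample 3 or RAC3 sample 3, and 0.149 with RAC3 sample 1 alone. ABCC4 had 0.013 and 0.010 in the FPKM analyses and 0.032 without NC sample 2, and ABCC3 0.019 with the GC trend removed. The causes were not tested. Depth limits the 7 tested members with a mean under 50 counts and the 10 not tested.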
